A study of Mus musculus with 6 samples.

Results

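The genes described here are the Fc receptors of mouse bone marrow, the proteins through which myeloid cells bind the constant region of antibodies. They were taken by symbol from the deposited gene table, as 7 of its 55291 genes: Fcgr1, Fcgr3 and Fcgr4 for the activating IgG receptors, Fcgr2b for the inhibitory one, Fcer1g for the shared gamma chain, Fcgrt for the neonatal receptor FcRn, and Fcer1a for the binding chain of the IgE receptor. Of the 7, 6 passed a filter on low counts that kept 15478 genes, and Fcer1a did not. RNA was sequenced from marrow flushed out of the femurs of 3 P2rx7 knockout mice (A, B and C) and 3 wild-type mice (1, 2 and 3), all aged 6 to 8 weeks, with 1 library per mouse. The series title relates ATP sensing by P2rx7, an ATP-gated cation channel, to the ageing of bone and to mitochondria of mesenchymal stromal cells. The labels give neither the strain nor the knockout allele, so which exons were removed, and whether the deletion was limited to some cells, is not given in the sources used here.

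In mice the activating Fc gamma receptors carry no signalling motif of their own. They pair with the gamma chain, whose ITAM is phosphorylated by Src-family kinases and recruits the kinase Syk, which leads to phagocytosis and cytokine release. FcγRIIB carries an inhibitory ITIM instead, recruits the lipid phosphatase SHIP1 and sets the threshold for activation. FcRn is built like an MHC class I molecule with beta-2 microglobulin, and in macrophages and endothelium it returns IgG from endosomes to the cell surface.

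The libraries held totals of 18716704 to 22382281 counts in knockouts and 20037343 to 23575652 counts in wild types, and 23625 to 24371 genes had counts. P2rx7 transcripts were lower in knockouts but not absent: they stood at 39.4, 38.4 and 37.5 CPM (counts scaled to library size by TMM) in knockouts A, B and C, against 60.5, 60.4 and 62.7 CPM in wild types 1, 2 and 3. The log2 fold change was -0.67 ± 0.05 (SE, n = 3 each; edgeR quasi-likelihood test, Benjamini-Hochberg adjusted p = 0.0109), or 62.8% of the wild-type level. Traces of pituitary and liver transcripts split the libraries otherwise than by genotype: Gh had 23 counts in knockout A, 0 in knockouts B and C, and 54, 82 and 75 in wild types, and Alb had 0, 46 and 36 counts in knockouts and 0 in every wild type. Knockouts B and C thus form a set without a wild type, so for those libraries set and genotype cannot be told apart. Over all genes, 16 of 15478 (0.103%) passed an adjusted p of 0.05, with 9 higher and 7 lower in knockouts. The median log2 fold change was 0.00 and 51.2% of genes were positive. Without knockout B or without knockout C, edgeR called 0 genes, among 1468 and 1772 with an unadjusted p under 0.05, whereas DESeq2 on all 6 libraries called 506. P2rx7 then had adjusted p = 0.0763 and 0.0973 in those edgeR fits. With a term for the set, the genotype difference is that of knockout A alone against the wild types. For that fit only the size of a change is given, which was a log2 fold change of -0.64 for P2rx7. The p-values weigh the difference between genotypes against the spread among mice of the same genotype, and they cannot separate genotype from set.

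The receptors sit on 3 chromosomes of the GRCm38 genome. Fcgr2b (chr1:170958617-170976547, minus strand), Fcgr4 (chr1:171018920-171029761, plus strand) and Fcgr3 (chr1:171051174-171064935, minus strand) are neighbours, with gaps of 42.4 and 21.4 kb, and Fcer1g (chr1:171229572-171234365, minus strand) and Fcer1a (chr1:173221284-173227214, minus strand) lie farther along the same chromosome. Fcgr1 is at chr3:96282909-96293969 and Fcgrt at chr7:45092990-45103851, both on the minus strand.

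Fcgr3 and Fcgr2b share nearly the same IgG-binding domains, and this limits how well their reads can be told apart. Each of the 2 extracellular Ig domains is encoded by 1 exon of 255 bases. Between the 2 genes the first of these exons differs at 14 bases (94.5% identical, longest identical run 102 bases) and the second at 5 bases (98% identical, longest run 113 bases). They are shown because a short read that falls between the differing bases, printed in capitals, could come from either gene. Sequences are from the GRCm38 genome at the exons of GENCODE M21.
Fcgr3 exon of Ig domain 1, chr1:171057691-171057945, minus strand: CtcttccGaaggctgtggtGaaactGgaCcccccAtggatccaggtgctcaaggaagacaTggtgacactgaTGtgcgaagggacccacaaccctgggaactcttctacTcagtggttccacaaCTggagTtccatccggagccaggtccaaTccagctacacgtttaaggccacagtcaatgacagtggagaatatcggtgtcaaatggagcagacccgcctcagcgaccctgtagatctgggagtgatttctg
Fcgr2b exon of Ig domain 1, chr1:170967980-170968234, minus strand: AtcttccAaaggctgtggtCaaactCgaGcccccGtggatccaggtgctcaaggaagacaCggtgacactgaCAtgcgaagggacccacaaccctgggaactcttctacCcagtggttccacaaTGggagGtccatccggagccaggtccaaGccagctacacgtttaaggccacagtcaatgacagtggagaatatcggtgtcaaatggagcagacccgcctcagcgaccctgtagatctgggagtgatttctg
Fcgr3 exon of Ig domain 2, chr1:171053939-171054193, minus strand: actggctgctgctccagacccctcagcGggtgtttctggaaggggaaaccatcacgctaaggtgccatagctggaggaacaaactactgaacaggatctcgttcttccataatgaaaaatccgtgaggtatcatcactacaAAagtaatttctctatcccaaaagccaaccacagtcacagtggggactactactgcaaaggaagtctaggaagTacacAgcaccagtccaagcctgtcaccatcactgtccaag
Fcgr2b exon of Ig domain 2, chr1:170966446-170966700, minus strand: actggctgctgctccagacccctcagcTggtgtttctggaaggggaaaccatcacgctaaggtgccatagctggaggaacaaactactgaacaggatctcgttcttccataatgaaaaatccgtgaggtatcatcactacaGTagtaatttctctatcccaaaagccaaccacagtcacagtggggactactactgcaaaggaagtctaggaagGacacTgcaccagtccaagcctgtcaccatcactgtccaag
Of all 50-base windows of the longest Fcgr3 coding transcript, 12.8% also occurred in an Fcgr2b transcript, and 4.96% of Fcgr2b windows occurred in Fcgr3. With windows of 100 bases the shares were 3.53% of Fcgr3 and 1.29% of Fcgr2b. Counting transcripts of any other gene, 8.6% of the 50-base and 5.7% of the 100-base windows of Fcgr2b occurred elsewhere, while the shares of Fcgr3 were the same as for Fcgr2b alone. The values of Fcgr3 and Fcgr2b are therefore uncertain to the extent that the authors' counting split or dropped shared reads. The matching exons of Fcgr4 were 55.7% to 61.6% identical to those of Fcgr3 and Fcgr2b, and no 50-base window of the transcripts of Fcgr1, Fcgr4, Fcer1g, Fcgrt or Fcer1a occurred in another gene. Genes annotated over the receptors had at most 2 counts in a library.

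Per length, the gamma chain was the most abundant receptor transcript and Fcgr4 the least abundant of the 6 tested. On the deposited FPKM scale (counts per base of summed exon length, scaled to library size), the order was Fcer1g, Fcgr3, Fcgrt, Fcgr2b, Fcgr1, Fcgr4 in each of the 6 libraries, and no 2 neighbours in that order overlapped. Fcer1g held rank 29 of the 15478 tested genes by mean FPKM, Fcgr3 rank 104, Fcgrt 252, Fcgr2b 896, Fcgr1 1730 and Fcgr4 3525. The order rests on gene lengths: Fcgr2b was divided by 5790 bases of summed exons, whereas its longest coding transcript has 3544.

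**Figure D1:**
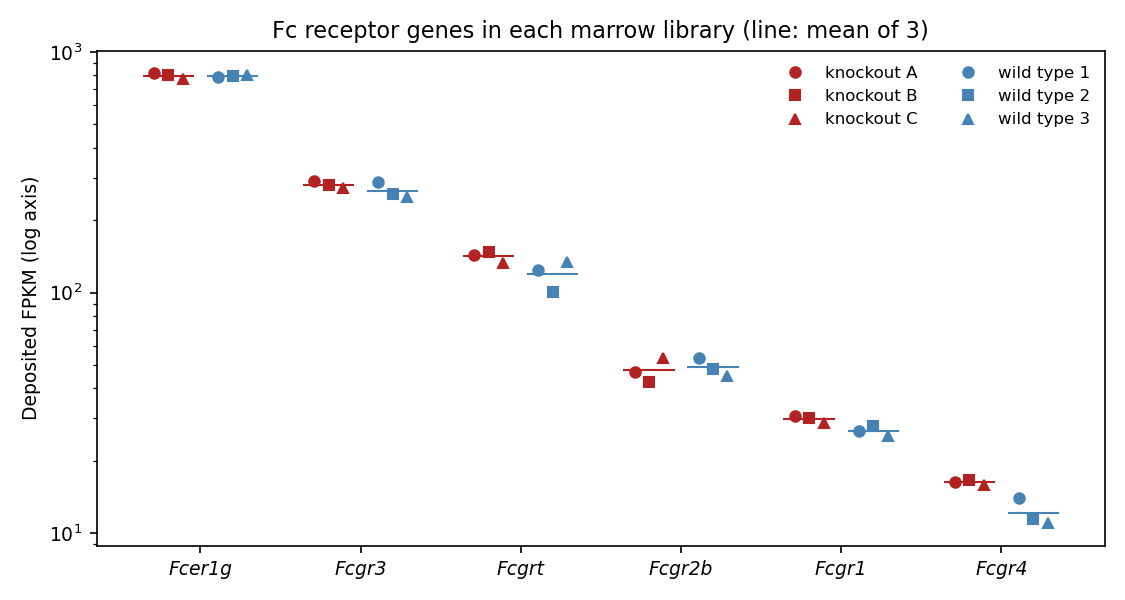
Deposited FPKM of the 6 tested Fc receptor genes on a log axis, one point per library, with knockouts in red left of wild types in blue and a line at the mean of 3. The gamma chain Fcer1g lies at 774 to 816 in knockouts and 788 to 804 in wild types, and Fcgr4 is the lowest, with its 3 knockouts at 15.8 to 16.7 above its 3 wild types at 11 to 14. Fcer1a is not drawn because its values are at or near 0.

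None of the 6 tested receptors passed the threshold, against 0.103% of all tested genes. All 3 knockouts lay above all 3 wild types in CPM for 3 of the 6 (Fcgr1, Fcgr4 and Fcgrt), where 11.5% of all tested genes did so, and the same 3 had an unadjusted p under 0.05, where 16.6% of all genes did. In FPKM, 2 of the 6 (Fcgr1 and Fcgr4) stood apart in this way, where 11.1% of all genes did. Of the 6, 5 had a positive log2 fold change, and their median was 0.13. In bulk samples, fewer or more cells of a type and less or more RNA per cell cannot be told apart.

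Fcgr4 encodes FcγRIV, a mouse receptor for IgG2a, IgG2c and IgG2b found on monocytes, macrophages and neutrophils. It had 16.3, 16.7 and 15.8 FPKM in knockouts A, B and C, against 14, 11.4 and 11 FPKM in wild types 1, 2 and 3. The groups did not overlap: the lowest knockout, C, lay above the highest wild type, 1. In raw counts these were 452, 398 and 398 in knockouts and 354, 332 and 321 in wild types, the smallest counts among the tested receptors. Fcgr4 stood at 134% of the wild-type level (95% interval 114% to 158%), a log2 fold change of 0.43 ± 0.10 (SE, n = 3 each; edgeR, unadjusted p = 0.00294, adjusted p = 0.159). It was the receptor with the largest fold change of the 6, and the call depended on the setting. When genes with few counts were not filtered out, edgeR gave Fcgr4 an adjusted p of 0.0141 and called it higher in knockouts, among 970 genes called in all; DESeq2 gave it an adjusted p of 0.0540.

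Fcgr1 encodes FcγRI, the high-affinity IgG receptor of monocytes and macrophages. It had 30.6, 30.2 and 28.7 FPKM in knockouts, against 26.6, 28.0 and 25.4 FPKM in wild types. Each knockout lay above each wild type, with the lowest knockout, C, only slightly above wild type 2. The gene stood at 112% of the wild-type level (95% interval 104% to 122%), a log2 fold change of 0.17 ± 0.05 (SE, n = 3 each; edgeR, unadjusted p = 0.0113, adjusted p = 0.196).

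Fcgr3 encodes FcγRIII, the low-affinity activating receptor of macrophages, neutrophils, mast cells and NK cells. It had 290, 281 and 272 FPKM in knockouts, against 289, 256 and 250 FPKM in wild types. Wild type 1 reached the level of knockout A, so the groups overlapped. The log2 fold change was 0.09 ± 0.07 (SE, n = 3 each; edgeR, adjusted p = 0.556), with a 95% interval from -0.07 to 0.25.

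Fcgr2b encodes the inhibitory receptor FcγRIIB, which B cells and myeloid cells carry. It had 46.6, 42.5 and 53.5 FPKM in knockouts, against 53.3, 48.3 and 45 FPKM in wild types. Knockouts held both the highest value, in C, and the lowest, in B. The log2 fold change was -0.03 ± 0.10 (SE, n = 3 each; edgeR, adjusted p = 0.895; 95% interval -0.26 to 0.19), and its sign turned to 0.03 without wild type 1 and to 0.04 without knockout B.

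Fcer1g encodes the gamma chain that activating Fc gamma receptors and the IgE receptor need to signal and, for most of them, to reach the surface. It had 816, 805 and 774 FPKM in knockouts, against 788, 797 and 804 FPKM in wild types, and the groups overlapped. Its log2 fold change of 0.01 ± 0.05 (SE, n = 3 each; edgeR, adjusted p = 0.942) had a 95% interval from -0.11 to 0.13, which is 92.9% to 109% of the wild-type level.

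Fcgrt encodes the heavy chain of FcRn. It had 143, 148 and 133 FPKM in knockouts, against 124, 101 and 134 FPKM in wild types. Knockout C and wild type 3 met, and wild type 2 was the lowest of the 6 libraries. Fcgrt stood at 119% of the wild-type level (95% interval 101% to 140%), a log2 fold change of 0.25 ± 0.10 (SE, n = 3 each; edgeR, unadjusted p = 0.0397, adjusted p = 0.276), and at 0.14 without wild type 2.

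Fcer1a encodes the IgE-binding chain of the high-affinity IgE receptor on mast cells and basophils. It had 1, 0 and 1 counts in knockouts and 0 counts in each wild type. These counts are under the 3 counts that a value of 0 allows, which is 0.135 to 0.159 CPM in knockouts, against 0.129 to 0.150 CPM in wild types, so no fold is given. That limit covers counting error only. The beta chain of the same receptor, Ms4a2, had 0.0450, 0.213 and 0.602 CPM in knockouts, against 0.0501, 0.0429 and 0.129 CPM in wild types. Of the 3 chains of the IgE receptor, the gamma chain alone was abundant at this depth.

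**Figure D2:**
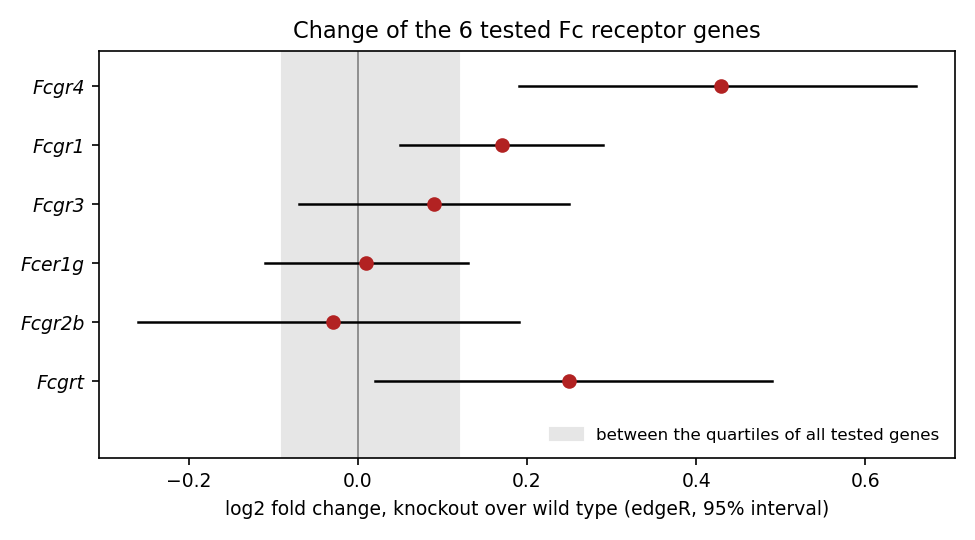
Log2 fold change of knockout over wild type for the 6 tested Fc receptor genes (edgeR, 3 libraries per genotype), with points at the estimate, bars for the 95% interval and a grey band between the quartiles of all tested genes, -0.09 and 0.12. Fcgr4 at 0.43, Fcgrt at 0.25 and Fcgr1 at 0.17 have intervals above 0, and none passed the adjusted threshold.

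The balance of receptors within a library does not depend on how libraries are scaled to each other. Summed FPKM of the activating chains Fcgr1, Fcgr3 and Fcgr4 over that of inhibitory Fcgr2b was 7.23, 7.72 and 5.91 in knockouts A, B and C, against 6.19, 6.11 and 6.37 in wild types 1, 2 and 3. The spread among knockouts (6.95 ± 0.934) took in all wild types (6.22 ± 0.134; SD, n = 3 each), with knockout C the lowest of the 6. Fcgr3 made up 86.1, 85.7 and 85.9% of the activating sum in knockouts and 87.7, 86.7 and 87.3% in wild types, with every knockout below every wild type. Fcgr4 made up 4.83, 5.09 and 5.0% in knockouts and 4.25, 3.87 and 3.85% in wild types, and these groups did not overlap. Fcgr4 over Fcgr2b was 0.349, 0.393 and 0.295 in knockouts, against 0.263, 0.237 and 0.246 in wild types, without overlap. The Fcgr4 share and this ratio reuse the Fcgr4 values given above and are no separate result. The gamma chain exceeded the activating chains in every library: Fcer1g over their sum was 2.42, 2.46 and 2.45 in knockouts and 2.39, 2.70 and 2.81 in wild types. Beta-2 microglobulin, the light chain of FcRn, was far above Fcgrt, at ratios of 23.5, 24.3 and 25 in knockouts and 22.5, 24.1 and 21.7 in wild types. These ratios are descriptions and were not tested.

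**Figure D3:**
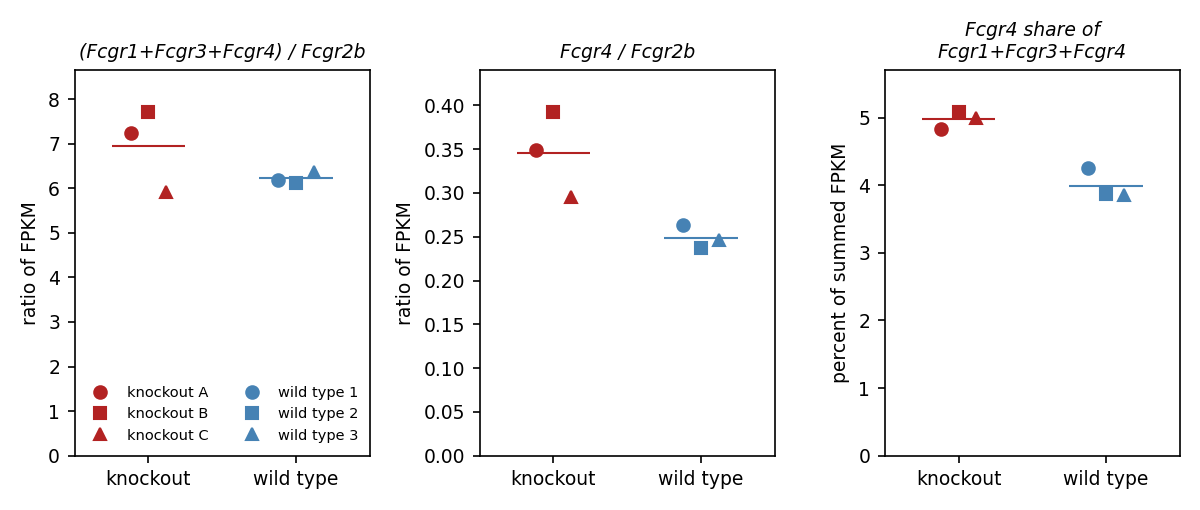
Ratios of deposited FPKM within each library for the activating receptors over Fcgr2b (left) and Fcgr4 over Fcgr2b (middle), and the percentage of the activating sum that is Fcgr4 (right), with knockouts left of wild types and a line at each mean. The left panel overlaps because knockout C, at 5.91, is below the wild types, whereas the Fcgr4 share is 4.83 to 5.09% in knockouts and 3.85 to 4.25% in wild types.

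The promoters of all 7 receptors were searched for 2 patterns. These were a PU box, GAGGAA, the core bound by the myeloid factor PU.1, and a GAS element, TTCNNNGAA, an element of interferon-gamma targets. The promoters of Fcgr1 and Fcgr4 are printed, as the 2 receptors whose knockouts lay above the wild types in both CPM and FPKM. Both strands of the 250 bases before the RefSeq start were read (RefSeq, build GRCm38.p6), and matches are in capitals. The 2 patterns did not overlap in these promoters.
Fcgr1 promoter, chr3:96293970-96294219, minus strand: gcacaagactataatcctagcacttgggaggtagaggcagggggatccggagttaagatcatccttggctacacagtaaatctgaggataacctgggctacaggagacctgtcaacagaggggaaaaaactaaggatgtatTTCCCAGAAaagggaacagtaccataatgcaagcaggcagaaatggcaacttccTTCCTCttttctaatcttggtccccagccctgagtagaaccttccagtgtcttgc
Fcgr4 promoter, chr1:171018676-171018925, plus strand: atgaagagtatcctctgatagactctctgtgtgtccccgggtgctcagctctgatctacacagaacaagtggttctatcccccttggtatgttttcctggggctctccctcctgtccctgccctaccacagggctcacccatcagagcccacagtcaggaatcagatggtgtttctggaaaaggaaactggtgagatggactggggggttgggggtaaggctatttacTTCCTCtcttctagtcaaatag
Fcgr1 has a GAS match, TTCCCAGAA, 109 bases before the start and a PU box on the other strand 55 bases before it, and Fcgr4 has a PU box on the other strand 22 bases before its start. Fcgr3, which did not stand apart, has a PU box in the promoters of both its RefSeq starts, and Fcer1a, which had almost no counts, has one too. Fcgr2b, Fcer1g and Fcgrt have neither, although the knockouts of Fcgrt lay above the wild types in CPM. Of 32851 promoters of the same length, 23.3% hold a PU box and 7.02% a GAS match, and a match is no evidence of binding.

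Antibody genes had the largest fold changes among the lists around the receptors, and 2 of them passed. Of 11 listed antibody chains and pentraxins, 7 were tested, 2 passed the threshold (Igha and Jchain, both higher), where 0.103% of all tested genes passed, and 7 had a positive log2 fold change, with a median of 3.75. Igha, the IgA heavy chain, had 95.6, 94.7 and 104 CPM in knockouts, against 4.61, 6.69 and 14.3 CPM in wild types (log2 fold change 3.51 ± 0.32, edgeR adjusted p = 0.0141). Jchain, which joins polymeric IgA and IgM, had 10.4, 11.1 and 12.4 CPM in knockouts, against 0.301, 0.729 and 1.42 CPM in wild types (3.75 ± 0.34, edgeR adjusted p = 0.0141). IgA and the J chain are not ligands of the Fc gamma receptors. The IgG heavy chains, which are, were looked at after their values were seen. Ighg1, Ighg2b, Ighg2c and Ighg3 together had 391, 343 and 515 counts in knockouts, against 10, 21 and 36 counts in wild types, which is 17.6, 18.2 and 25.8 CPM against 0.501, 0.90 and 1.55 CPM. No single one of the 4 passed, with edgeR adjusted p = 0.0994, 0.0609, 0.0734 and 0.163 in that order. Ighg3 had 0 counts in every wild type and 29, 111 and 11 counts in knockout A, knockout B and knockout C, which is at least 54.9-fold higher against 3 counts over the wild-type group, and at least 21.0-fold higher without knockout B. With Ighg3 at the first bound the list median was again 3.75. These 4 genes are close relatives, so reads may be split among them. Igha and Jchain are also 2 of 8 genes of the plasma cell list, of which 6 were tested, 2 passed and 5 were positive, with a median of 0.24. Among the others of that list, Tnfrsf17 and Mzb1 stayed under 1 CPM in every library. Sdc1, Xbp1, Prdm1 and Irf4 were tested and overlapped between genotypes, at log2 fold changes of 0.09, 0.05, -0.15 and 0.40. Sdc1 had 161, 172 and 178 CPM in knockouts, against 151, 149 and 181 CPM in wild types. The calls of Igha and Jchain ended without knockout B (edgeR adjusted p = 0.0922 for both) and without knockout C (0.0973 for both). With a term for the set, which leaves knockout A alone against the wild types, the log2 fold changes were 3.47 for Igha and 3.63 for Jchain. Without wild type 3, the highest of the wild types for both, the log2 fold changes were 4.11 for Igha and 4.40 for Jchain, and limma on log2(FPKM + 1) gave 3.26 and 2.06.

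Downstream of the receptors no gene passed. Of 24 genes of activating signalling, all tested, 3 had an unadjusted p under 0.05 and 16 were positive, with a median of 0.02. Rac1, the GTPase of the phagocytic cup, had 430, 418 and 392 CPM in knockouts, against 426, 427 and 420 CPM in wild types, and Lyn, a Src-family kinase, had 248, 256 and 237 CPM against 237, 248 and 251 CPM. Of 14 inhibitory genes, all tested, 2 had an unadjusted p under 0.05 and 5 were positive, with a median of -0.04. Inpp5d, the SHIP1 phosphatase that FcγRIIB recruits, had 297, 285 and 259 CPM in knockouts, against 282, 313 and 279 CPM in wild types, with overlap. Sirpa, the inhibitory receptor for CD47, had 946, 958 and 897 CPM in knockouts, against 878, 888 and 835 CPM in wild types, without overlap (log2 fold change 0.11 ± 0.06, edgeR adjusted p = 0.397).

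Other receptors that use the gamma chain mostly had negative log2 fold changes, and none passed. Of 10 listed, 8 were tested, 2 had an unadjusted p under 0.05 and 1 was positive, with a median of -0.19. In 3 (Clec4e, Oscar and Lilra5) all knockouts lay below all wild types, where 10.4% of all tested genes did so. Oscar and Lilra5 rest on few counts: Oscar had 7, 7 and 8 in knockouts, against 11, 12 and 13 in wild types. Lilra5 had 9, 11 and 8 counts in knockouts, against 25, 17 and 21 in wild types. The 2 with the highest CPM, the C-type lectins Clec4n (Dectin-2) and Clec4d, overlapped between genotypes, at log2 fold changes of -0.12 ± 0.09 and -0.04 ± 0.08 (edgeR adjusted p = 0.537 and 0.851). Clec4e (Mincle), named after its values were seen, had 11.9, 12.6 and 12.1 CPM in knockouts, against 21.3, 18.6 and 14.2 CPM in wild types (log2 fold change -0.56 ± 0.14, edgeR adjusted p = 0.159). It was called lower with no filter on low counts (edgeR adjusted p = 0.00558), in DESeq2 (0.0252) and without wild type 3 (edgeR adjusted p = 0.0334). No other setting called Clec4e, and edgeR adjusted p was 0.497 without knockout B and 0.389 without knockout C. With the set term the log2 fold change of Clec4e was -0.59. Of 8 other ITAM adaptors, 3 were tested, 1 had an unadjusted p under 0.05 and 3 were positive, with a median of 0.13; Tyrobp (DAP12) had 312, 337 and 315 CPM in knockouts, against 307, 288 and 299 CPM in wild types. Hcst (DAP10, which carries a PI3-kinase motif in place of an ITAM) was at 4.0, 5.26 and 4.72 CPM against 3.71, 3.09 and 3.32 CPM. Of 13 other Fc-binding or Fc receptor-like genes, 3 were tested, 1 had an unadjusted p under 0.05 and 1 was positive, with a median of -0.09. Fcrls, a scavenger-like relative, had 771, 695 and 677 CPM in knockouts, against 669, 873 and 854 CPM in wild types, with overlap. Trim21, the cytosolic antibody receptor, had 25.7, 24.1 and 23.3 CPM in knockouts, against 22.2, 20.5 and 20.7 CPM in wild types (log2 fold change 0.21 ± 0.07, edgeR adjusted p = 0.208).

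The light chain of FcRn stood beside its heavy chain. Of 9 genes for the partner and the trafficking of FcRn, 7 were tested, none passed, 3 had an unadjusted p under 0.05 and 3 were positive, with a median of -0.04. B2m had 2884, 3122 and 2870 CPM in knockouts, against 2415, 2071 and 2481 CPM in wild types, without overlap (log2 fold change 0.35 ± 0.09, edgeR adjusted p = 0.161). It was called higher with no filter on low counts (edgeR adjusted p = 0.00779) and in DESeq2 (adjusted p = 0.00173). No other setting called B2m, and edgeR adjusted p was 0.498 without knockout B and 0.375 without knockout C. With the set term the log2 fold change of B2m was 0.31. Wild type 2 was the lowest for B2m and for Fcgrt alike. Ehd1, an endosomal recycling protein, overlapped at -0.05 ± 0.08 (edgeR adjusted p = 0.775).

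Fcgr1 and B2m are textbook targets of interferon gamma, and 21 other targets were listed. Of the 20 tested none passed, 11 had an unadjusted p under 0.05 (16.6% of all tested genes did), 17 were positive and the median was 0.24, beside 0.00 over all genes. In 11 of the 20 all knockouts lay above all wild types, where 11.5% of all tested genes did so. Irf8, a myeloid transcription factor, had 103, 116 and 101 CPM in knockouts, against 89.2, 88.9 and 109 CPM in wild types, with overlap. Tap1, the peptide transporter, had 103, 110 and 97.8 CPM in knockouts, against 80.6, 79.4 and 92.4 CPM in wild types (log2 fold change 0.30 ± 0.07, edgeR adjusted p = 0.159). It was called higher with no filter (edgeR adjusted p = 0.0174), in DESeq2 (0.0302) and without wild type 3 (edgeR adjusted p = 0.0487). No other setting called Tap1, and edgeR adjusted p was 0.497 without knockout B and 0.326 without knockout C. With the set term the log2 fold change of Tap1 was 0.29. 

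**Figure D4:**
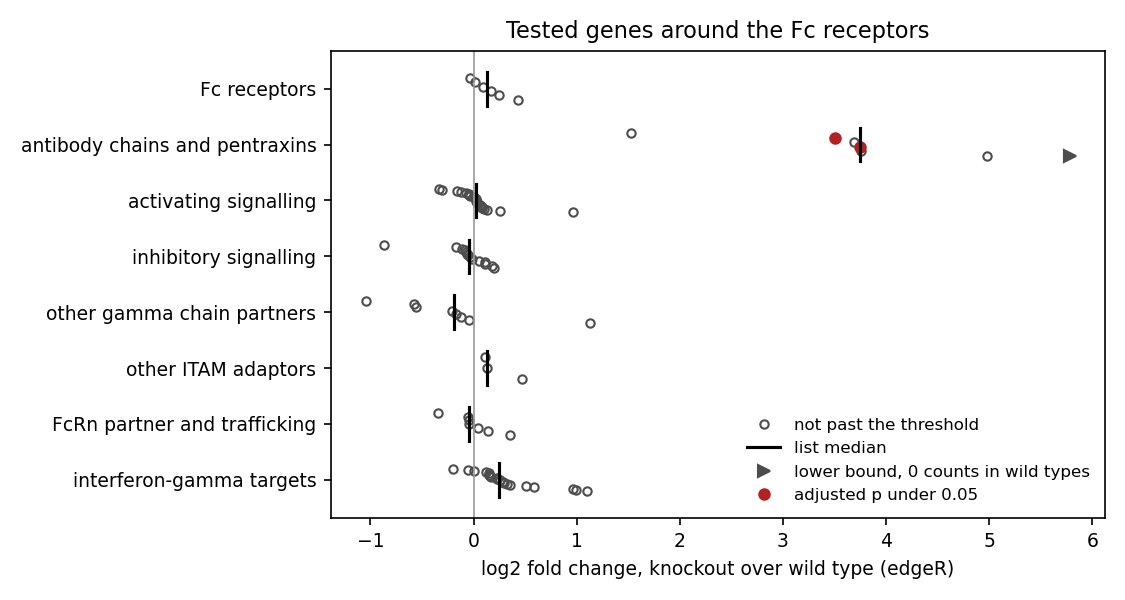
Log2 fold changes of knockout over wild type for the tested genes of 8 lists around the Fc receptors (edgeR), with a black bar at each list's median, filled red points past the adjusted threshold and a triangle at the lower bound of Ighg3, which had 0 counts in wild types. The antibody chains lie far to the right with a median of 3.75, the receptors themselves at 0.13 and the interferon-gamma targets at 0.24.

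Macrophage genes were abundant, neutrophil genes were present at varied levels, and several lymphocyte markers were at or near 0. The labels call the samples flushed marrow and do not say whether cells were cultured or sorted before RNA was taken. Among macrophage genes, Mrc1 had 443, 403 and 404 FPKM in knockouts and 394, 338 and 387 FPKM in wild types, and Csf1r had 259, 244 and 207 FPKM against 239, 233 and 246 FPKM. The B cell markers Cd79a and Ms4a1 and the neutrophil marker Ly6g did not exceed 0.602 CPM in any library. Other genes of the same lists were expressed: Ebf1 had 164 to 177 CPM in knockouts and 114 to 158 CPM in wild types, and S100a9 had 15.7, 102 and 118 FPKM in knockouts, against 127, 42.8 and 152 FPKM in wild types. The 16 monocyte and macrophage genes were all tested, none passed, 5 had an unadjusted p under 0.05 and 11 were positive, with a median of 0.11. In 1 of them, Cx3cr1, all knockouts lay below all wild types, and in 2 all lay above, where 10.4% and 11.5% of all tested genes did so. Cx3cr1 had 26.8, 15.6 and 12.8 CPM in knockouts, against 40.3, 89.6 and 34.2 CPM in wild types (log2 fold change -1.57 ± 0.40, edgeR adjusted p = 0.162). The summed level of the 16 genes, of which Cx3cr1 is a small part, ran from 16781 to 18035 CPM in knockouts and from 16418 to 17816 CPM in wild types. The part of any cell type in the levels of the receptors was not tested.

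**Figure D5:**
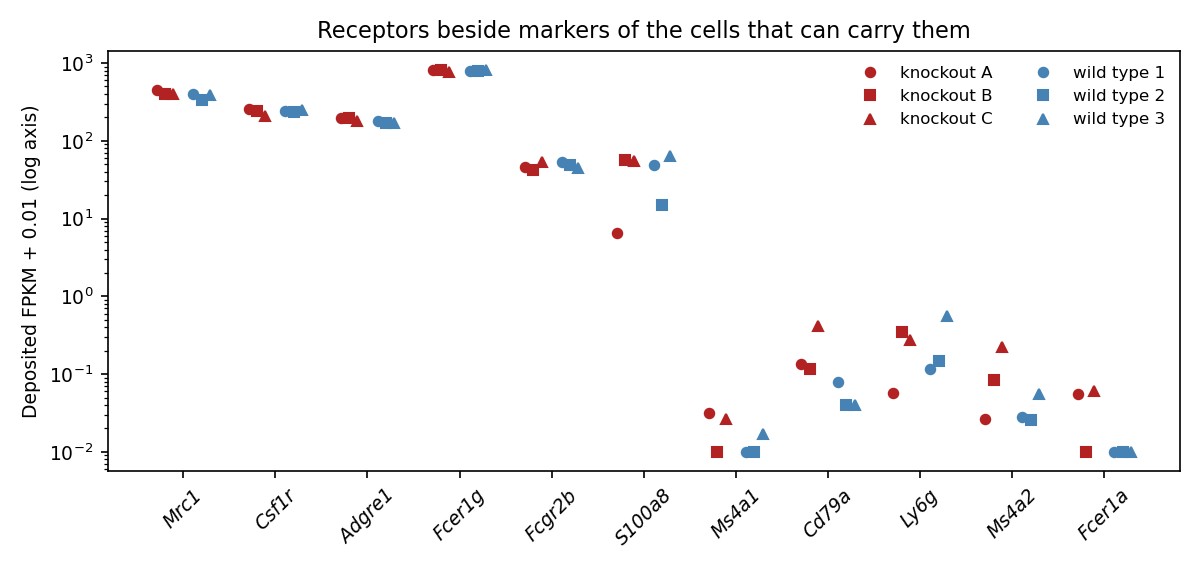
Deposited FPKM plus 0.01 on a log axis for macrophage markers, Fcer1g, Fcgr2b, the neutrophil gene S100a8 and defining markers of B cells, neutrophils and mast cells, one point per library with knockouts in red left of wild types in blue. The macrophage markers and both receptors lie above 40 FPKM in every library, S100a8 varies from 6.44 in knockout A to 62.9 in wild type 3, and the B cell, Ly6g, Ms4a2 and Fcer1a points lie below 1.

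Markers of other cells differed between libraries, and their part in the receptor levels was not tested. Mature neutrophil genes, of which 7 of 11 were tested with 0 called, 1 at an unadjusted p under 0.05 and a median of -0.09, summed to 261 to 377 CPM in knockouts, against 272 to 419 CPM in wild types. Ccl6, the most abundant of them, had 204, 170 and 209 CPM in knockouts, against 228, 166 and 150 CPM in wild types. The sum therefore rests in large part on Ccl6 and hides the spread of the other genes. S100a9 had 15.7, 102 and 118 FPKM in knockouts A, B and C. Fcgr4 had 16.3, 16.7 and 15.8 FPKM in the same libraries. Whether the level of Fcgr4 is related to that of neutrophil genes was not tested. The 10 neutrophil precursor genes, all tested with 0 called, had 3 at an unadjusted p under 0.05 and a median of 0.88, and summed to 118 to 698 CPM in knockouts, against 113 to 476 CPM in wild types. Among them Mpo had 49.7, 278 and 222 CPM in knockouts, against 35.1, 16.5 and 115 CPM in wild types. The mast cell and basophil list had 8 of 12 tested, 0 called, 3 at an unadjusted p under 0.05 and a median of 0.54, with 6 positive and 2 negative. Kit, also a progenitor gene, had 77.2, 65.2 and 50.4 CPM in knockouts, against 28.3, 6.69 and 28.0 CPM in wild types (log2 fold change 1.62 ± 0.43, edgeR adjusted p = 0.167). Il1rl1, the IL-33 receptor, had 2.65, 2.34 and 2.61 CPM in knockouts, against 3.01, 7.33 and 4.44 CPM in wild types (-0.96 ± 0.31, edgeR adjusted p = 0.206). The eosinophil list had 3 of 8 tested, 0 called and a median of -0.89, with Ccr3 at 4.09, 6.75 and 4.46 CPM in knockouts, against 8.62, 11.5 and 7.98 CPM in wild types.

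The remaining lists were tested in part and gave 1 call. B cell genes had 5 of 12 tested, 0 called and a median of 0.13, and T and NK cell genes had 4 of 11 tested, 0 called, 3 at an unadjusted p under 0.05 and a median of 1.62. Nkg7, a granule gene of NK and T cells, had 0.585, 3.14 and 2.16 CPM in knockouts, against 0.351, 0.171 and 0.776 CPM in wild types (log2 fold change 2.13 ± 0.67, edgeR adjusted p = 0.204), Cd4 had a log2 fold change of -0.48 ± 0.19 (edgeR adjusted p = 0.273), and Cd3e was at 0 in every library. Dendritic cell genes had 5 of 9 tested and a median of -0.06, megakaryocyte genes 6 of 7 and a median of 1.17, and endothelial genes, whose cells carry FcRn, 9 of 9 and a median of 0.16, with 0 called in each. Stab1, which macrophages also express, made up most of the endothelial sum, at 2399 to 2950 CPM in knockouts and 2734 to 3035 CPM in wild types, and the other 8 genes summed to 80.4 to 158 CPM in knockouts and 77.4 to 157 CPM in wild types. Osteoclasts, myeloid cells that use Fcer1g and Tyrobp for ITAM signals, had 6 of 9 genes tested, 1 called and a median of 0.26. The called gene was Atp6v0d2, a proton pump subunit, at 41.2, 31.8 and 42.0 CPM in knockouts, against 17.6, 20.3 and 17.3 CPM in wild types (log2 fold change 1.06 ± 0.12, edgeR adjusted p = 0.0318). That call ended when wild type 1 or knockout A, B or C was left out (edgeR adjusted p = 0.128, 0.0717, 0.0521 and 0.109 in that order). With the set term the log2 fold change of Atp6v0d2 was 1.16.

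Genes beside the receptors on the chromosome were read from the same fit. Of the nearest tested genes beside the receptors that are not receptors themselves, none passed. Fcgrt has Rcn3, an endoplasmic reticulum calcium-binding protein, 0.769 kb away, which stood at 89.5% of the wild-type level (log2 fold change -0.16 ± 0.05, edgeR adjusted p = 0.196), on the other side of 0 from Fcgrt. Cfap126, the gene after Fcgr3, had a log2 fold change of 0.31 ± 0.20 with overlap (edgeR adjusted p = 0.481).

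The genes nearest in profile were found by the root mean square difference of log2 CPM, each gene centred on its own mean, over the 6 libraries and 10786 genes. Fcgr4 had Cd36, a scavenger receptor and fatty acid carrier, at 0.0564 and Gda, guanine deaminase, at 0.0770, and these were the most distant partners of any receptor. Cd36 had 442 ± 22.6 CPM in knockouts, against 322 ± 27.9 CPM in wild types (SD, n = 3 each). Its log2 fold change was 0.46 ± 0.07 (edgeR adjusted p = 0.0994). It was called with no filter on low counts (edgeR adjusted p = 0.000404) and in DESeq2 (5.93e-06). No other setting called Cd36, and edgeR adjusted p was 0.384 without knockout B and 0.201 without knockout C. With the set term the log2 fold change of Cd36 was 0.50. Cd36 was chosen for a profile near that of Fcgr4, so its difference follows from that choice and is no separate result. Fcgr1 was nearest to Tab1 (0.0161) and Spata7 (0.0213), Fcgr3 to Mir22hg (0.0119) and Ms4a6b (0.0134), and Fcgr2b to Cenph (0.0297) and Rpl37rt (0.0379). Fcer1g was nearest to Prxl2c (0.00847) and Rpap1 (0.00872), and Fcgrt to Pik3r1 (0.0297) and Rbpms (0.0305). These distances were not tested and are given as a description.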

How the data were processed

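Gene-level RNA-seq of 3 P2rx7 knockout and 3 wild-type marrows was used, from libraries made with a SMARTer mRNA kit and 1.3 µg of total RNA, per the labels. The authors deposited 1 table of 55291 genes with raw counts and FPKM values of each library. Per the submitters' processing notes the builds are GRCm38 and mm10, which name the same assembly. How reads were aligned, counted and assigned to strands, and with which annotation, is not given in the sources used here. Summed exon lengths as deposited equal those of GENCODE M21 for 95.4% of genes and for all 7 receptors. The deposited FPKM values equal count over length and a scaled library size in 100% of values, within a relative tolerance of 1e-06.

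Counts were tested with edgeR 4.0.16 in R 4.3.3 (filterByExpr, TMM, glmQLFit, glmQLFTest, two-sided), and p-values were adjusted by Benjamini-Hochberg over 15478 genes with a threshold of 0.05. Nothing in the labels pairs knockouts, which are lettered, with wild types, which are numbered. CPM values are TMM-scaled. The members, the 21 gene lists and the tests were chosen with earlier results of these data known. Named genes are the members, P2rx7, for each tested member the 2 genes nearest in profile with a mean of at least 5 CPM (log2 CPM with a prior count of 2; members and predicted genes left out), the nearest tested genes on each side, and from each list those past the threshold (at most 4) or else the 2 most abundant; any other name was chosen after seeing its values. Alternatives were RLE and upper-quartile scaling, no filter, DESeq2 1.42.0, limma 3.58.1 on log2(FPKM + 1) and log2(FPKM + 0.1), robust edgeR, each library left out, and the set of libraries by Gh and Alb as a term. Some genes within this rule are not reported here. Promoter and transcript searches used Python 3.11.15.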

Additional observations from a re-analysis of the deposited data

How the results depend on the processing

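The 6 receptors kept their direction and their side of the threshold in 81 of 84 refits. No receptor was called in the main fit, and staying under the threshold says nothing where edgeR called 0 of all genes, as without knockout B or knockout C. Fcgr1, Fcgr4 and Fcgrt were positive in 42 of 42. That sign could hardly turn, because the refits reuse libraries where every knockout lay above every wild type in CPM. Their log2 fold changes were 0.14 to 0.20, 0.36 to 0.54 and 0.14 to 0.34 when single libraries were left out. The exceptions were Fcgr4, called with no filter on low counts (0.42, edgeR adjusted p = 0.0141), and Fcgr2b. Fcgr2b turned to 0.03 without wild type 1 and 0.04 without knockout B, in a range of -0.13 to 0.04. For Fcgr4 the adjusted p was 0.0540 in DESeq2, and 0.0141 to 0.497 over the alternatives other than the set term. So 1 receptor was called with no filter and 0 under the other settings. The number of genes called, 16, became 970 with no filter, 506 with DESeq2, 10 with limma on log2(FPKM + 1) and 2 with limma on log2(FPKM + 0.1). With single libraries left out it was 0 to 172. It was 45 without wild type 2, 172 without wild type 3, 5 without wild type 1, 8 with knockout A left out and 0 with either knockout B or knockout C left out. The causes were not tested. For 10 other named genes the same settings were run after seeing the data, and none reversed; Igha was also lost in limma on log2(FPKM + 0.1) (adjusted p = 0.0552) and robust edgeR (0.0868), Jchain in the first (0.0595), and Atp6v0d2 in limma at either pseudocount (0.0761 and 0.0886). The log2 fold change of P2rx7 was -0.64 with the set term and ranged from -0.69 to -0.65 with libraries left out. The activating over inhibitory ratio, 0.16 as log2 of knockout over wild type, was 0.08 to 0.26 with libraries left out, 0.30 without Fcgr3, and 0.16 with the length of the longest coding transcript, an alternative chosen after seeing the data. No paired analysis was possible because the knockouts are lettered and the wild types numbered, so they share no replicate number. Depth kept Fcer1a, with 0 or 1 counts, from being compared.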
